A study of Mus musculus with 16 samples.

Results

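The baseline described here is the transcriptome of the control cultures of a knockdown study in mouse spermatogonial stem cells, and it rests on the 4 Negative control arrays among the 16 arrays of the series. They were chosen by their title alone. No knockdown array entered any value, and no comparison between treatments was made. For each of 18193 genes the probe set brightest on average over these 4 arrays stood for the gene, and genes were placed by that mean on the deposited linear intensity scale. Because the brightness of different probe sets also depends on their probes, a percentile places a probe set among the others and does not order amounts of RNA.

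The cultures carried the C57BL/6 genetic background and were begun with germ cells enriched for THY1. They were grown in a serum-free medium that held 20 ng/ml of GDNF, 150 ng/ml of soluble GFRA1 and 1 ng/ml of FGF2, and RNA was taken after 30 h with a negative siRNA. The labels mention no feeder layer and do not say whether the replicates were separate cultures, so the spread between arrays may be technical. With 4 arrays in a single group, the number of arrays limits the precision, and the levels below are descriptions with no test. In RNA from whole cultures, fewer cells of a type and less RNA per cell cannot be told apart.

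Spermatogonial stem cells are the germ cells of the testis that both renew themselves and give rise to sperm. GDNF, a growth factor made by somatic cells of the testis, binds the co-receptor GFRA1 and signals through the receptor tyrosine kinase RET. In these cells it maintains transcription factors such as ETV5, BCL6B, ID4 and POU3F1, while retinoic acid drives the opposite step, differentiation and entry into meiosis.

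The promoters of 8 genes are shown first because the genes lie on opposite sides of the array median and their promoters differ in CpG content, which ran with intensity over all genes (given at the end). Each stretch is read 5′ to 3′ from 100 bases before to 20 bases after a transcription start in the RefSeq annotation of GRCm38.p6, with every CpG dinucleotide in capitals. The first 3 belong to genes of undifferentiated spermatogonia and the next to the germ line RNA-binding protein DAZL, all above the array median on every control array. Those of Nanog, Pax7, the sperm protamine gene Prm1 and the liver albumin gene Alb follow, all below it. Etv5 and Nanog have 2 annotated starts each, of which 1 is shown.
Gfra1: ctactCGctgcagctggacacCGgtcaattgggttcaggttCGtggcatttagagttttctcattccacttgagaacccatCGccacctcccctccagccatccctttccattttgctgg
Id4: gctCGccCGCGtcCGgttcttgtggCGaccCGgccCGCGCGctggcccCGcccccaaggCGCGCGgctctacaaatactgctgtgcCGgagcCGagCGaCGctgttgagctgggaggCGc
Etv5: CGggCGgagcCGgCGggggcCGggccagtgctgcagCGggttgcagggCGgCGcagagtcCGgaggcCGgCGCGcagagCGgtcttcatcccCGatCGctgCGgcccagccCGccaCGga
Dazl: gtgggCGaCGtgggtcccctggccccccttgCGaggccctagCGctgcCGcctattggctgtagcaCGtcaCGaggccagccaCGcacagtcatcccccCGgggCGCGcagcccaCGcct
Nanog: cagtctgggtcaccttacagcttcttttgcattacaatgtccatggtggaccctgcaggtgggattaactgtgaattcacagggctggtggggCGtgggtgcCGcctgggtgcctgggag
Pax7: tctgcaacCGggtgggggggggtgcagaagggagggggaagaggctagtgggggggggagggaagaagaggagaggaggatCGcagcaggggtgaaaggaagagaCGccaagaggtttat
Prm1: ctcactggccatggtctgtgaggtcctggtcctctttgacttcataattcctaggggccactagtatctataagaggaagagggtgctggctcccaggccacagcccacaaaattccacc
Alb: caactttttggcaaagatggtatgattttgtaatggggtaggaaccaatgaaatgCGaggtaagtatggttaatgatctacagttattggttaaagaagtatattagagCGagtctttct
The Gfra1 stretch lies at chr19:58455379-58455498 on the minus strand, that of Id4 at chr13:48261016-48261135 on the plus strand, that of Etv5 at chr16:22439551-22439670 on the minus strand and that of Dazl at chr17:50293601-50293720 on the minus strand. The Nanog stretch lies at chr6:122707389-122707508 on the plus strand, that of Pax7 at chr4:139832949-139833068 on the minus strand, that of Prm1 at chr16:10796804-10796923 on the minus strand and that of Alb at chr5:90460770-90460889 on the plus strand. Id4 and Etv5 held 18 CpG each in the 120 bases shown and Dazl held 12. Gfra1 held 4, Pax7 held 3, Nanog and Alb held 2 each, and Prm1 held 0.

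The 4 arrays were close to each other. Pearson correlations of log2(intensity + 1) over genes lay between 0.9994 and 0.9995 for the 6 pairs, and no pair held identical values. The median of all non-control probe sets lay between 15.6 and 16.3, and single values ran from 1.656 to 67273. A total of 10989 genes (60.4%) lay above the array median on all 4 arrays, 7002 (38.5%) lay below it on all 4, and 202 (1.11%) were mixed. In bands of the mean intensity, 6566 genes (36.1%) lay under 10, 2222 between 10 and 100, 5299 between 100 and 1000, 3795 between 1000 and 10000, and 311 over 10000. The median coefficient of variation over the 4 arrays was 1.25% in the lowest band, 8.22% in the next, and then 5.06%, 3.20% and 2.17%. Genes in the lowest band moved with the array rather than singly: 83.9% of them had their highest value on replicate 2 and 86.1% their lowest on replicate 3.

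A pair of gene lists served as a measured background. Of 39 genes typical of other tissues (liver, pancreas, muscle, retina, kidney, brain, blood and skin), 4 lay above the array median on all arrays, and the list had a median intensity of 6.00. These 4 were the keratin gene Krt10 (272 ± 24.7), the myosin gene Myh6 (94.7 ± 5.39), the muscle actinin gene Actn3 (93.6 ± 17.02) and the myelin gene Mbp (21.8 ± 3.32); here and below the error is the SD over n = 4 arrays. None of 39 olfactory receptor genes lay above the median, and the highest of them, Olfr75-ps1, averaged 12.2. A gene below the array median on all 4 arrays, where all 39 olfactory receptor genes and 35 of the 39 other-tissue genes lay, is called near the floor below. A gene above the median but no brighter than Myh6 is not separated from this background by its level.

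**Figure D1:**
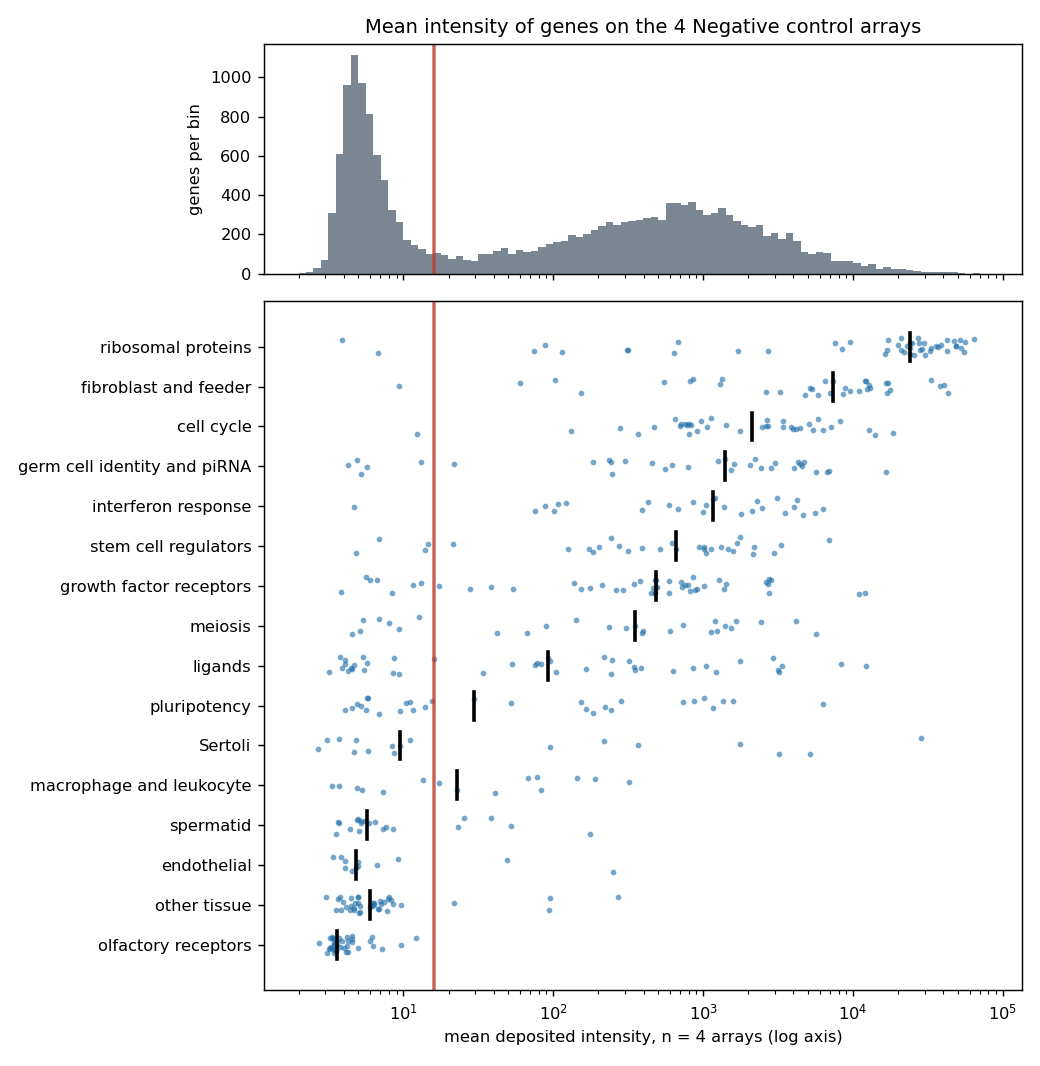
Upper panel: number of genes by mean deposited intensity over the 4 Negative control arrays (log axis). Lower panel: every measured member of the named gene lists as a dot, with the list median as a black bar; the red band spans the 4 array medians, 15.6 to 16.3. Ribosomal protein and fibroblast genes lie farthest to the right, with list medians of 24004 and 7362, and the medians of olfactory receptors and other-tissue genes lie to the left of the band, at 3.63 and 6.00.

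Among genes with a probe set paired with them alone, the brightest in the control cultures were those of protein synthesis. Of the 100 brightest non-control probe sets, 47 were paired with 1 gene and 42 with several, and only the former were ranked. Gapdh, for example, was not ranked. Of the 30 genes with the highest means, 15 encode ribosomal proteins, 2 translation factors and 2 heat shock chaperones. Rps29, a protein of the small ribosomal subunit, came first with 67273, 61759, 62962 and 62740 on replicates 1 to 4. Rpl13a averaged 55518 ± 634 and Rplp0, part of the ribosomal stalk, 54812 ± 671. Eef1a1, the elongation factor that brings aminoacyl-tRNA to the ribosome, averaged 46204 ± 707, and Eif5a, a factor that helps peptide bond formation, 42471 ± 412. The chaperone genes Hspa8 and Hsp90aa1 averaged 33956 ± 1295 and 33898 ± 961.

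The other 11 of the 30 have varied roles. Fth1, the ferritin heavy chain, averaged 45568 ± 1109.7, Hmgn1, a nucleosome-binding protein, 45145 ± 1951, and Tmsb10, an actin-binding thymosin, 41533 ± 353. Actb averaged 38054 ± 937, Ran, the GTPase of nuclear transport, 35505 ± 550.0, Tpt1 45570 ± 637 and the mitochondrial malate dehydrogenase gene Mdh2 32644 ± 708. The remaining 4, Col3a1, Lgals1, S100a6 and Vim, are members of the fibroblast list and are described with it. Together the 30 made up 6.72% of the summed intensity of the genes ranked here and the 100 brightest 15.5%. Probe sets paired with several genes or none were not in that sum. For 13 of the 30, the probe set is of a type whose probes can also match other transcripts, and ribosomal protein genes have many near-identical copies, so their single levels are uncertain.

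Whole families of these housekeeping genes sat high. Of 48 ribosomal protein genes 46 lay above the array median, with a list median of 24004, beside 60.4% of all genes above it and a median of 124 over all genes. Counts were 45 of 46 for translation factors, 38 of 39 for proteasome subunits, 76 of 81 for subunits of the respiratory chain and ATP synthase, and 27 of 35 for heat shock and chaperonin genes. Their list medians were 4799, 5005, 5284 and 2221. Cox6a1, a subunit of cytochrome oxidase, averaged 31949 ± 619, Psmb4, a proteasome core subunit, 23311 ± 240.4, and Cct6a, a chaperonin subunit, 29294 ± 648. Yet Rps16, Eif4a3 and Ndufb4, members of these same families, lay near the floor. Here and below, a gene near the floor is one whose ranked probe set was dim, which does not show that the gene was silent.

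All 5 markers of undifferentiated spermatogonia lay above the array median with every probe set that measures them. Gfra1, the GDNF co-receptor, read 1423, 1448, 1419.5 and 1402 on replicates 1 to 4 with its brightest probe set, and Ret, its signalling partner, read 697, 721, 727 and 691. Zbtb16, the PLZF zinc finger repressor needed for stem cell maintenance, read 1699.6, 1747, 1743 and 1838. The arrays lay close together, with a coefficient of variation of 1.31% for Gfra1, 2.52% for Ret and 3.32% for Zbtb16. Id4, an inhibitor of basic helix-loop-helix factors, read 1347, 1292, 1268 and 1319, and Etv5, an ETS factor induced by GDNF, read 2882, 3072, 2999 and 2922. The other probe sets of Gfra1 averaged 1062 and 500, that of Ret 623, those of Zbtb16 584 and 128, those of Id4 456 and 165, and those of Etv5 744 and 451. The 3 probe sets of Zbtb16 thus spanned more than a 10-fold range on the same RNA.

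Of the 31 measured regulators of the stem cell state, Zbtb16, Id4 and Etv5 included, 27 lay above the median on all 4 arrays (87.1%, beside 60.4% of all genes). With the dimmest probe set of each gene, 18 of the 31 lay above it, beside 7440 of all 18193 genes. Nanos2 and Nanos3 had no probe set with a single gene and are not analysed here. Dmrt1, a DM domain factor that holds back meiosis in spermatogonia, was the brightest of the list and read 7177, 6724, 6853 and 6940.2. Bmi1, a Polycomb protein, averaged 3320.2 ± 133, Sall4, a zinc finger factor that partners PLZF, 2186 ± 44.0, and Taf4b, a subunit of a germ cell form of TFIID, 1686 ± 56.6. Lin28a, which blocks maturation of let-7 microRNAs, averaged 1584 ± 39.2. The other knockdown targets of the study were also present in these control cultures. Bcl6b, a BTB zinc finger factor, read 1527, 1440.2, 1341 and 1504, and Pou3f1, a POU factor, read 692, 648, 659 and 644.

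A middle group lay between 900 and 1200. It held the cell cycle brake Rb1 (1132 ± 66.3), the forkhead factors Foxo1 (1049.5 ± 28.3) and Foxc2 (936 ± 61.1), Mycn (1017 ± 14.5) and the E protein gene Tcf3 (1008 ± 103). Egr2, an immediate early factor, stood higher at 2164 ± 80.1 and its relative Egr3 lower at 390.2 ± 39.2. Among the Id genes other than Id4, Id2 averaged 620.0 ± 64.2, Id1 314 ± 17.1 and Id3 273 ± 16.9. Sohlh1, a helix-loop-helix factor of early differentiation, averaged 514 ± 23.3 and the telomerase gene Tert 244 ± 11.95.

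Lhx1, a LIM homeobox factor, read 206, 181, 202 and 218 on the 4 arrays, and Eomes, a T-box factor, read 118, 126, 117 and 139. Both lay above the array medians on every array. Shisa6, which in mouse marks part of the GFRA1-positive cells, read 19.99, 22.01, 21.5 and 21.6, just above the medians and in the range of the dimmest other-tissue gene that passed. The X-linked factor Sox3 averaged 173 ± 11.6.

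4 regulators lay near the floor on all 4 arrays. Neurog3, a factor of spermatogonia on the way to differentiation, read 14.96, 13.99, 16.1 and 13.1, and Utf1, a chromatin protein of undifferentiated spermatogonia, read 14.1, 14.05, 13.8 and 13.97. Both were just under the array medians. Pax7, which marks a rare stem cell population in mouse, read 4.75, 4.78, 4.93 and 4.78, and Pdx1, best known as a homeobox factor of the pancreas, read 6.72, 6.998, 6.81 and 6.96. The readings of Pax7 and Pdx1 fell within the range of the olfactory receptor and other-tissue genes, so a low level of either could not be told from the floor. Of the 24 regulators with more than 1 probe set, 9 had probe sets on both sides of the median.

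The receptors that receive GDNF and FGF were not equally bright. The list of growth factor receptors had 41 of 48 measured genes above the median on all arrays (85.4%, beside 60.4% of all genes), with a list median of 481. That count rests on the brightest probe set of each gene. With the dimmest probe set, 20 of the 48 lay above the median, beside 7440 of all 18193 genes. Of the GDNF family co-receptors, Gfra1 is given above. Gfra2, the neurturin co-receptor, averaged 478 ± 2.70, and Gfra3, the artemin co-receptor, lay near the floor at 8.41 ± 0.2298. Of the FGF receptors, Fgfr1 averaged 2767 ± 66.8 and Fgfr2 38.7 ± 0.394. Fgfr3 (11.6 ± 0.0801) and Fgfr4 (5.65 ± 0.0733) lay below the median on every array.

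The brightest of the receptor list was Pdgfra, the receptor for platelet-derived growth factor on mesenchymal cells, with 12161, 11832, 12238 and 11999. Tgfbr2, the type II receptor for TGF-beta, averaged 10988 ± 243, and Pdgfrb 2638 ± 214. BMP receptors were represented by Bmpr1a (2833 ± 40.0) and Bmpr2 (2698 ± 117), while Bmpr1b read 7.31, 17.4, 13.6 and 14.3 and crossed the array median. Il6st, the shared subunit of interleukin-6 type receptors, averaged 2767 ± 53.7 and Lifr, the leukaemia inhibitory factor receptor, 878 ± 63.9. Igf1r, the receptor for insulin-like growth factors, averaged 1386 ± 11.5 and Insr, the insulin receptor, 289.6 ± 17.1. Kit, the receptor that marks differentiating spermatogonia, read 462, 444, 425 and 466.

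Notch, Wnt and Hedgehog receptors were mostly measured well above the floor. Notch2 averaged 1005 ± 69.6, Notch3 822 ± 37.9 and Notch1 755 ± 39.7, while Notch4 lay near the floor at 6.71 ± 0.0743. Of 10 Frizzled receptors, which bind Wnt proteins, 9 lay above the median, with Fzd1 at 1467 ± 34.8. Smo averaged 903 ± 35.7 and Ptch1, the Hedgehog receptor, 488 ± 9.36. The chemokine receptor Cxcr4 read 172, 169, 126 and 141. Csf1r, a receptor used by macrophages, averaged 17.3 ± 1.0996, just above the array medians. The neurotrophin receptor Ntrk2 (5.98 ± 0.211) and the endothelial receptor Kdr (3.83 ± 0.683) were near the floor. Of 41 receptors with several probe sets, 21 had probe sets on both sides of the median, so these counts rest on the brightest probe set of each gene.

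**Figure D2:**
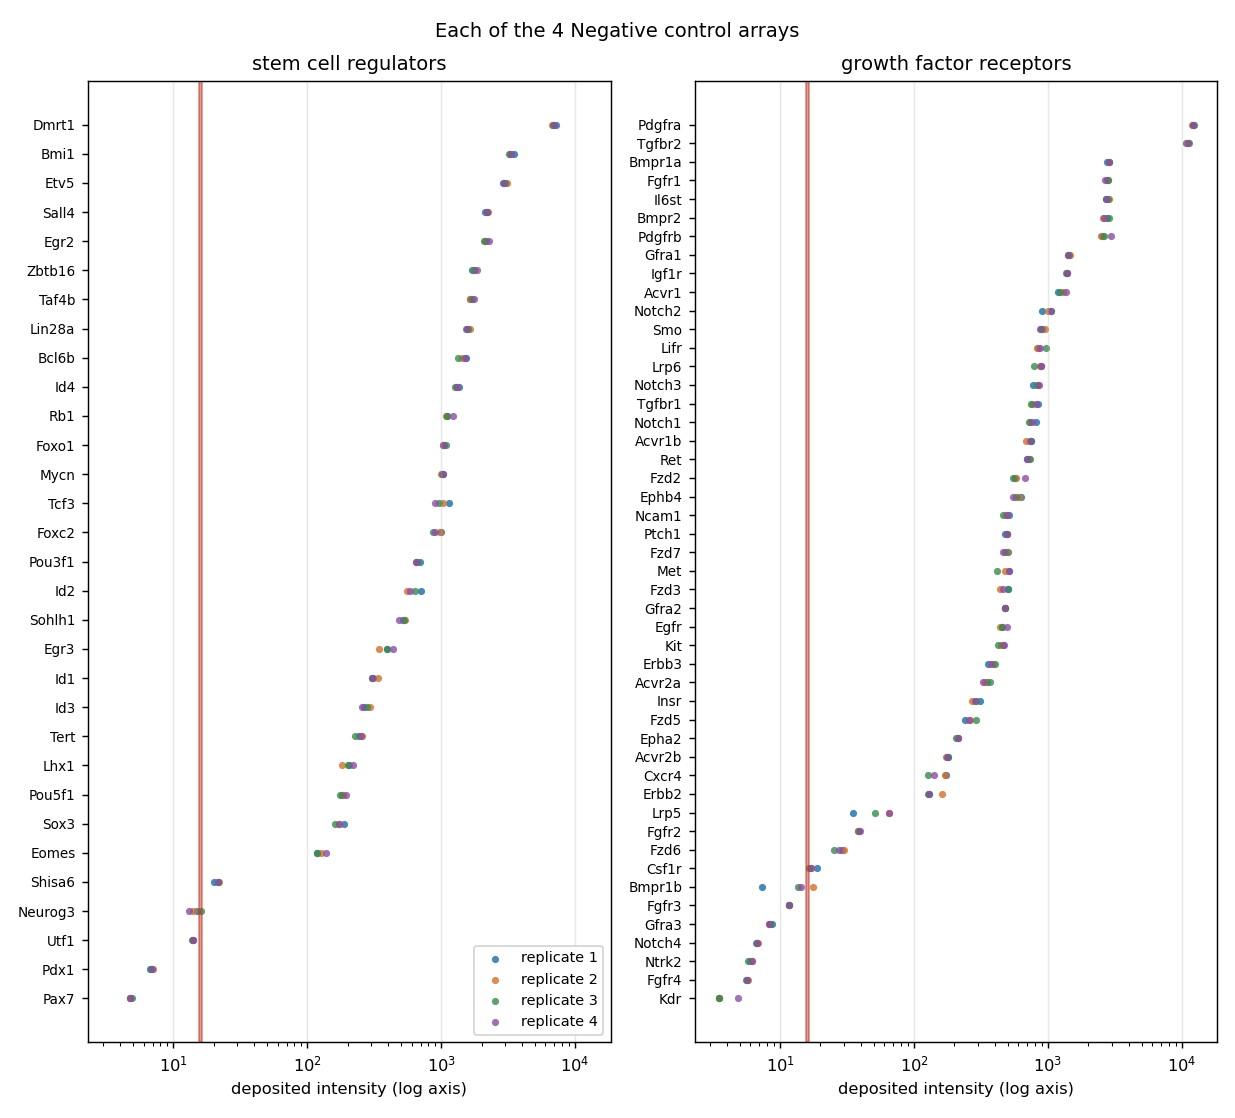
Deposited intensity (log axis) of each measured stem cell regulator (left) and growth factor receptor (right); each dot is 1 of the 4 Negative control arrays and the red band spans the array medians. Dmrt1 and Pdgfra stand at the top; Utf1, Pdx1 and Pax7 on the left and Fgfr3, Gfra3, Notch4, Ntrk2, Fgfr4 and Kdr on the right lie below the band. Neurog3 lies below it except for replicate 3, at 16.1, which is inside the band but under that array's own median of 16.3.

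Genes of secreted ligands were divided. Of 43 measured, 28 lay above the median (65.1%, beside 60.4% of all genes), and 15 lay below it. The chemokine gene Ccl2 read 11826, 12663, 12680 and 11802, and Cxcl12, the ligand of CXCR4, read 8146, 8313, 8472 and 8388. Csf1, the growth factor of macrophages, averaged 3379 ± 35.4, Kitl, the ligand of KIT, 3215 ± 103 and Fgf7 3169.7 ± 142. Gdnf itself was dim but above the array median on every array, with 96.97, 92.2, 95.7 and 93.95. That is the level of the other-tissue genes Myh6 and Actn3, which also passed the median, so the measured background does not separate Gdnf. Fgf2, which like GDNF was supplied in the medium, lay near the floor at 8.64 ± 0.0516. Artn (3.89), Fgf8 (3.802) and the Notch ligand gene Dll1 (3.21) were near the floor as well.

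Intracellular genes of GDNF and FGF signalling were all measured above the median, 29 of 29, beside 60.4% of all genes, with a list median of 1244. The G1 cyclin gene Ccnd2 read 8617, 8859, 8191 and 7395, and Ccnd1 averaged 5687 ± 219.6. Akt1, a kinase downstream of PI3K, averaged 3610.3 ± 133, the immediate early gene Egr1 3285 ± 135, and Ccnd3 2442 ± 98.8. The lowest were the kinase gene Src (107 ± 7.68), the phosphatase gene Dusp4 (231 ± 6.26) and Braf (267 ± 24.4). With the dimmest probe set in place of the brightest, 17 of the 29 lay above the median.

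Of the surface proteins used to sort or describe spermatogonia, 26 of 30 lay above the median (86.7%, beside 60.4% of all genes). With the dimmest probe set of each gene, 15 of the 30 lay above it, beside 7440 of all 18193 genes. Ly6e, a GPI-anchored protein, averaged 12203 ± 478, the tetraspanin gene Cd81 9990.1 ± 97.6, and the transferrin receptor gene Tfrc 6633 ± 164. Itgb1, the integrin beta subunit used to enrich stem cells, read 4662, 4847, 4624 and 4761, and the tetraspanin gene Cd9 averaged 4146 ± 154. Among other known sorting antigens, Itga6 averaged 1492 ± 37.3, Epcam 2188 ± 137, Mcam 2492 ± 129.9 and Cdh1, which encodes E-cadherin, 85.6 ± 1.39. Cdh1 was dimmer than the other-tissue genes Myh6 and Actn3, so the measured background does not separate Cdh1. Thy1, the antigen by which the founding cells were enriched, read 845, 879.9, 876 and 826. Adgra3, an adhesion receptor formerly called GPR125, averaged 1184 ± 59.9. Pecam1 (6.698 ± 0.418), Prom1 (4.38 ± 0.0407) and Cldn6 (3.44 ± 0.0316) were near the floor. Of 17 surface genes with several probe sets, 11 had probe sets on both sides of the median.

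Adhesion families differed in how many members were above the median, where 60.4% of all genes lay. Tetraspanins had 18 of 25, with Tspan3 at 5459.7 ± 58.7 and Cd151 at 4631 ± 111 after Cd81. Integrin subunits had 13 of 25, with Itgav (3464 ± 112) after Itgb1. Classical cadherins had 7 of 21, led by Cdh11, a cadherin of mesenchymal cells, at 6232 ± 109. Claudins, the proteins of tight junctions, had 1 of 20, and that gene, Cldn12, averaged 2241 ± 101. Ephrin receptors had 7 of 13, the TNF receptor superfamily 10 of 19 and interleukin receptor subunits 15 of 35.

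Transcription factors were read by family. Over 20 families, 167 of 273 genes lay above the median (61.2%, beside 60.4% of all genes) and 40 had a mean over 1000. The brightest was Sox4, an SRY-related factor, with 13000, 13015, 12875 and 13342. Dmrt1 came next, followed by the Kruppel-like factor Klf9 (4689 ± 84.5), the shared SMAD gene Smad4 (4414 ± 111), Stat3 (3927 ± 140.4) and the AP-1 gene Fosl2 (3586 ± 155). Etv5 was the brightest of 24 ETS genes, of which 16 lay above the median, with Elk3 (2783 ± 87.3) and Gabpa (1494 ± 108) after it. Of 41 BTB zinc finger genes 38 lay above the median, with Zbtb33 (2852 ± 214), Zbtb11 (1980.1 ± 59.6) and Zbtb16 at the top.

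Transcription factor families ranged from all members above the median to few. Above it lay 4 of 4 Egr genes, 4 of 4 Id genes, 7 of 8 each of the Smad, E2f and Irf families, 6 of 7 AP-1 genes, 5 of 6 Stat genes and 12 of 16 Klf genes. Fox genes had 18 of 37, with Foxj3 (2196 ± 79.2) and Foxo3 (1521 ± 25.5) at the top. The counts were 14 of 33 for Hox, 7 of 19 for Sox, 5 of 11 for Pou, 4 of 7 for Dmrt, 4 of 8 for Lhx, 2 of 4 for Rhox, 4 of 14 for Tbx, 2 of 8 for Pax and 1 of 6 for Gata genes. Hoxa5, the brightest Hox gene, averaged 326 ± 31.1, and Gata2, the brightest Gata gene, 131 ± 7.95. Pou3f1 was the brightest of the POU genes. Zinc finger, Fox and Ets names gather proteins of unlike function, so a family count says only how many probe sets were bright.

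Germ line genes were strongly represented. Of 33 genes of germ cell identity and the piRNA pathway, which silences transposons, 28 lay above the median (84.8%, beside 60.4% of all genes). The list median was 1394. Dazl, the germ line RNA-binding protein, read 16778, 16773, 16547 and 16449, and Ddx4, the VASA helicase, read 7104, 6795, 6709 and 6978. The 4 arrays differed little, with a coefficient of variation of 0.992% for Dazl and 2.58% for Ddx4. Mael, a piRNA pathway protein, averaged 6671 ± 124, the chromosome axis gene Sycp3 5634 ± 167 and Tex19.1 4714 ± 151. Below the median on all arrays were Piwil1, a PIWI protein of meiotic cells, at 13.1 ± 0.458, the cancer-testis gene Magea4, the demethylase gene Kdm4d, the egg gene Zar1 and Dppa3 (4.24 ± 0.0314), which is made in primordial germ cells. Piwil2 (2446 ± 53.9) and Piwil4 (299 ± 19.3), the other PIWI genes, lay above it. The brightest probe set of Piwil4 is of a type whose probes can also match other transcripts. Its other probe set averaged 4.91 and lay below the median on every array.

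Genes of differentiating spermatogonia were also present. Of 18 measured, 16 lay above the median (88.9%, beside 60.4% of all genes). Among them were Tex14 (2045 ± 94.3), a protein of germ cell bridges, Sohlh2 (1137 ± 36.6) and Stra8 (743 ± 32.2), the factor that retinoic acid induces before meiosis. Kit and Sohlh1 are given above. Prdm1 (5.22 ± 0.106) and Neurog3 lay below it. Of 17 retinoic acid pathway genes, 12 lay above the median (70.6%, beside 60.4% of all genes), led by Aldh1a1, a retinaldehyde dehydrogenase, with 4073, 4122, 4291 and 4729. The retinoic acid receptor gene Rarb (4.61 ± 0.02598), Stra6 (5.31 ± 0.134) and Cyp26a1 (5.38 ± 0.0411), which encodes an enzyme that breaks retinoic acid down, lay near the floor.

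Of 27 measured meiotic genes, 20 lay above the median (74.1%, beside 60.4% of all genes). The brightest were the axis gene Sycp3, given above, the synaptonemal complex gene Syce2 (4165 ± 41.2), Tex11 (2415 ± 70.2) and the cohesin genes Smc1b (1662 ± 43.4) and Stag3 (1544 ± 77.8). The axis gene Hormad2 averaged only 89.4 ± 5.83. Genes of recombination lay on both sides of the median. Above it were Dmc1 (398 ± 21.7), a strand exchange protein, its partners Psmc3ip (735 ± 9.68) and Mnd1 (mean 141), the crossover gene Ccnb1ip1 (388 ± 21.2) and the mismatch repair gene Mlh3 (66.6 ± 7.97). Hormad2 and Mlh3 were dimmer than the other-tissue genes Myh6 and Actn3, so the measured background does not separate them. Near the floor were Spo11 (5.37 ± 0.0299), which makes the meiotic DNA breaks, Prdm9 (4.55 ± 0.0528), which places them, and Meiob (5.16 ± 0.0866), which acts in their repair. Of 20 spermatid genes 5 lay above the median and 15 below it, the brightest being Crem (176 ± 20.9), a factor with several isoforms, and Tnp1, a transition protein gene, was just above it at 23.1 ± 1.39. The acrosome gene Acr (3.67 ± 0.0339) and the sperm glycolysis gene Gapdhs (3.54 ± 0.0336) were near the floor.

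Pluripotency genes were divided, with 15 of 29 above the median (51.7%, beside 60.4% of all genes), 13 below it and 1 mixed. The corepressor gene Trim28 averaged 6313 ± 189, Klf4 1349.9 ± 103 and Tcl1 1170.2 ± 75.8. The 3 core embryonic stem cell factors were not alike: Pou5f1 read 182, 186, 175 and 196, above the median on every array. Nanog (5.67, 5.73, 5.52 and 5.69) and Sox2 (9.03, 9.53, 10.3 and 9.23) lay below the median on every array. Nr0b1 (4.93 ± 0.0794), Fgf4 (4.57 ± 0.0556) and Gdf3 (4.07 ± 0.0468) were also near the floor.

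Beside this germ line signal stood a fibroblast signal of high intensity. Of 35 fibroblast genes 34 lay above the median (97.1%, beside 60.4% of all genes). The list median was 7362, at the 97.4th percentile of all genes, and 28 had a mean over 1000. Col3a1, a fibrillar collagen chain, read 43431, 44036, 42251 and 41787, and Vim, the intermediate filament of mesenchymal cells, read 33816, 32406, 32616 and 32855. The lectin gene Lgals1 averaged 40398 ± 379.7, the calcium-binding protein gene S100a6 38142 ± 811, and the matrix proteoglycan gene Dcn 17586 ± 245. The list's lowest members were Fap (103 ± 4.73), Lum (59.9 ± 11.4) and Meox2 (9.29 ± 0.304), and Meox2 alone lay below the median. Of the 500 brightest genes, 18 were on the fibroblast list, 1 on the germ cell identity list, namely Dazl, and 0 on the list of stem cell regulators. Of 42 collagen chains 25 lay above the median, and the laminin chain gene Lamb1 averaged 4091 ± 196.

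The list is not exclusive to fibroblasts: Thy1, Cd44, Pdgfra, Pdgfrb and Ccl2 stand on other lists here too, and Vim, Lgals1 and S100a6 are made by many cells. Whether the fibroblast, Leydig and ligand genes described here were transcribed in the germ cells or in other cells of the culture was not tested.

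Markers of other somatic cells were uneven. Of 17 Sertoli genes 7 lay above the median (41.2%, beside 60.4% of all genes), led by Ctsl (28404 ± 673), a lysosomal protease of many cells, Clu (5137 ± 168), Kitl, Rhox5 (1757 ± 55.3) and the Sertoli factor Sox9 (366 ± 15.1). The other 10 lay near the floor, among them Amh (2.68 ± 0.0162), Fshr (3.098 ± 0.0187), Inha (3.72 ± 0.0192), Wt1 (8.39 ± 0.0977) and Gata4 (9.53 ± 0.271). Of 5 measured Leydig genes, Cyp11a1, the enzyme that begins steroid synthesis, read 2780.4, 2694, 2683 and 2568, and Star, the carrier that brings cholesterol to it, read 1766, 1711, 1707 and 1772. Hsd3b1 averaged 249.8 ± 23.5, while Cyp17a1 (3.48 ± 0.02903) and Hsd17b3 (5.47 ± 0.0546), which are needed for testosterone, were near the floor.

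Muscle, blood and vessel markers lay on both sides of the median. Acta2, smooth muscle actin, averaged 2416 ± 73.1, and 4 of 9 myoid and smooth muscle genes lay above the median. Myh11 (8.47 ± 0.233), Cnn1 (4.12 ± 0.0431) and Lmod1 (4.05 ± 0.0288) lay below it. Of 15 macrophage and leukocyte genes 9 lay above the median, a share of 60.0% that is close to the 60.4% of all genes, the brightest being Laptm5 (318 ± 35.9), Tyrobp (188 ± 12.6) and Cd14 (143 ± 12.99). The macrophage genes Adgre1 (5.32 ± 0.2204), Itgam (4.92 ± 0.0833) and C1qa (3.33 ± 0.0287) were near the floor. Of 13 endothelial genes 2 lay above the median, Plvap (249 ± 11.4) and Ramp2 (48.7 ± 1.68), while Cdh5 (4.98 ± 0.0534) and Cldn5 (3.36 ± 0.0299) were near the floor.

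**Figure D3:**
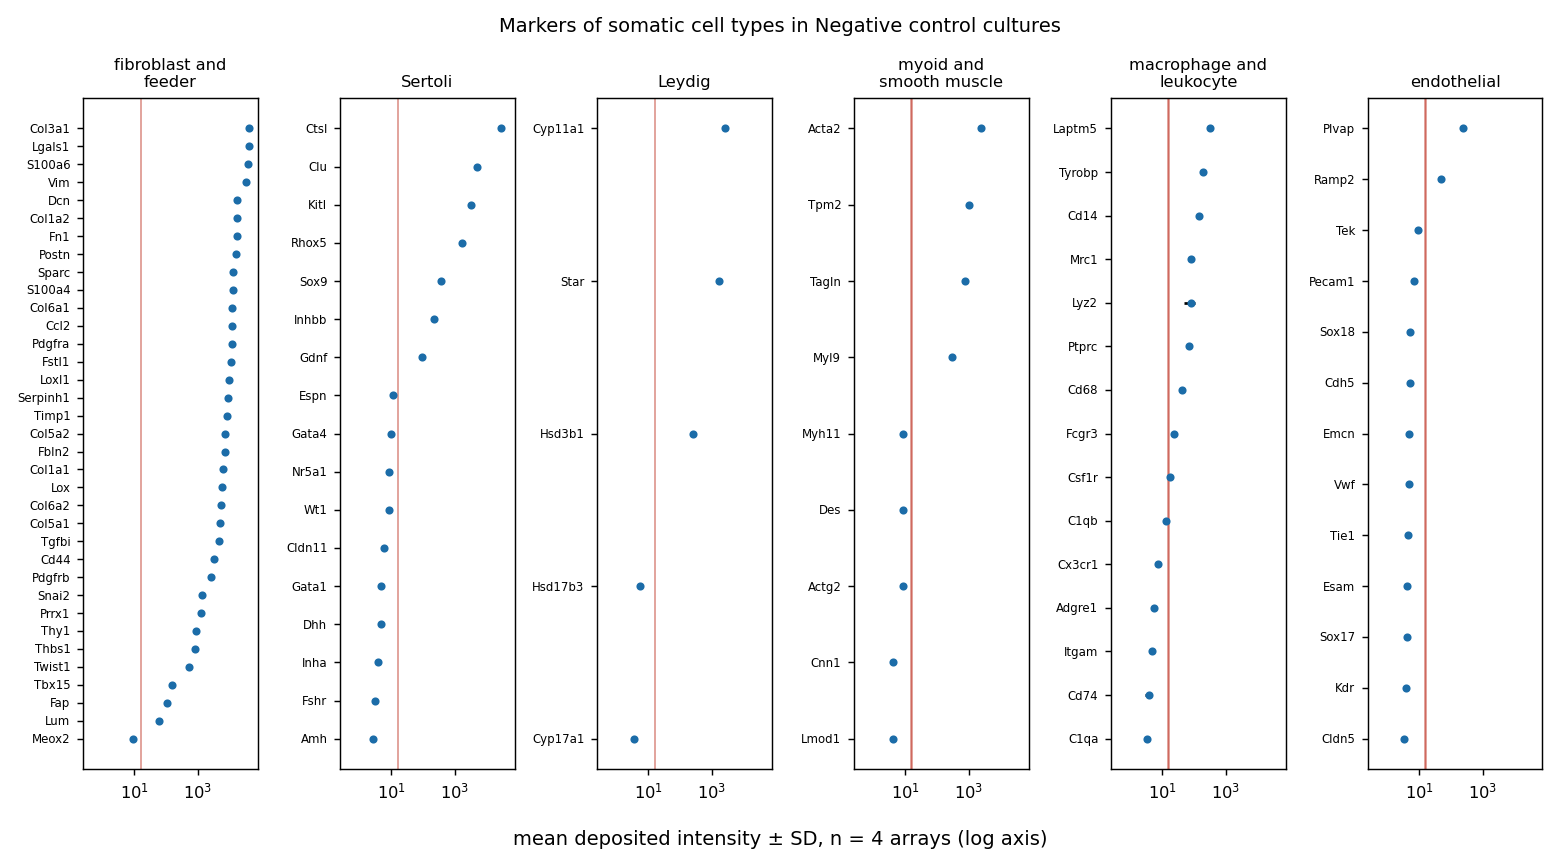
Mean deposited intensity ± SD over the 4 Negative control arrays (log axis) of each measured marker, 1 panel per somatic cell type; the red band spans the array medians. Fibroblast genes lie to the right of the band except Meox2, whereas the Sertoli, myoid and endothelial panels have most genes to the left of it.

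The cultures carried the signal of cycling cells. Of 38 S phase and mitosis genes 37 lay above the median (97.4%, beside 60.4% of all genes), with a list median of 2123. Pcna, the sliding clamp of DNA replication, read 18425, 18734, 18170 and 18631, the helicase genes Mcm5 and Mcm7 averaged 13916 ± 96.7 and 12861 ± 319.8, and Cdk4 averaged 7120.2 ± 142. Cdkn2a, an inhibitor of the cell cycle, was the exception at 12.4 ± 1.58. Not every inhibitor gene was dim: Cdkn1a, Cdkn1b, Cdkn2c and Cdkn2d all had means over 100. With the dimmest probe set of each gene, 24 of the 38 lay above the median, beside 7440 of all 18193 genes.

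Among the lists, the arrays differed most in the interferon-stimulated genes, which are switched on by the antiviral cytokine interferon. Of 27 measured, 26 lay above the median (96.3%, beside 60.4% of all genes), with a list median of 1156. Ifit3, an antiviral effector, read 4335, 5559.6, 4862 and 3811, Cxcl10, a chemokine, read 1864, 2768, 2482 and 2020.4, and Oasl2 read 5338, 6355, 5733 and 4756. Replicate 2 was the highest array for each of these genes, and the lowest was replicate 4 for Ifit3 and Oasl2 and replicate 1 for Cxcl10. Xaf1 averaged 6347 ± 442, Rtp4 4211 ± 308 and Ifi27 4032 ± 134. Oas3 (4.71 ± 0.0759) was the only member below the median.

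On the log2(intensity + 1) scale the 26 genes deviated from their own means by -0.07, 0.17, 0.04 and -0.15 on replicates 1 to 4, a range of 0.32. No other list with at least 5 members above the median had a wider range. The next widest was 0.26, for 7 ephrin receptor genes. That of the ribosomal proteins was 0.02 and that of the stem cell regulators 0.04. Of the 26 genes, 21 were highest on replicate 2 and 18 lowest on replicate 4, beside 25.8% and 18.4% of all genes above the median. The 9 macrophage and leukocyte genes above the median deviated by 0.04, -0.05, -0.09 and 0.10, with replicate 4 the highest. For the interferon list without replicate 2 the range was 0.19 and without replicate 4 it was 0.24. The labels give no batch, and the source of this spread was not tested.

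**Figure D4:**
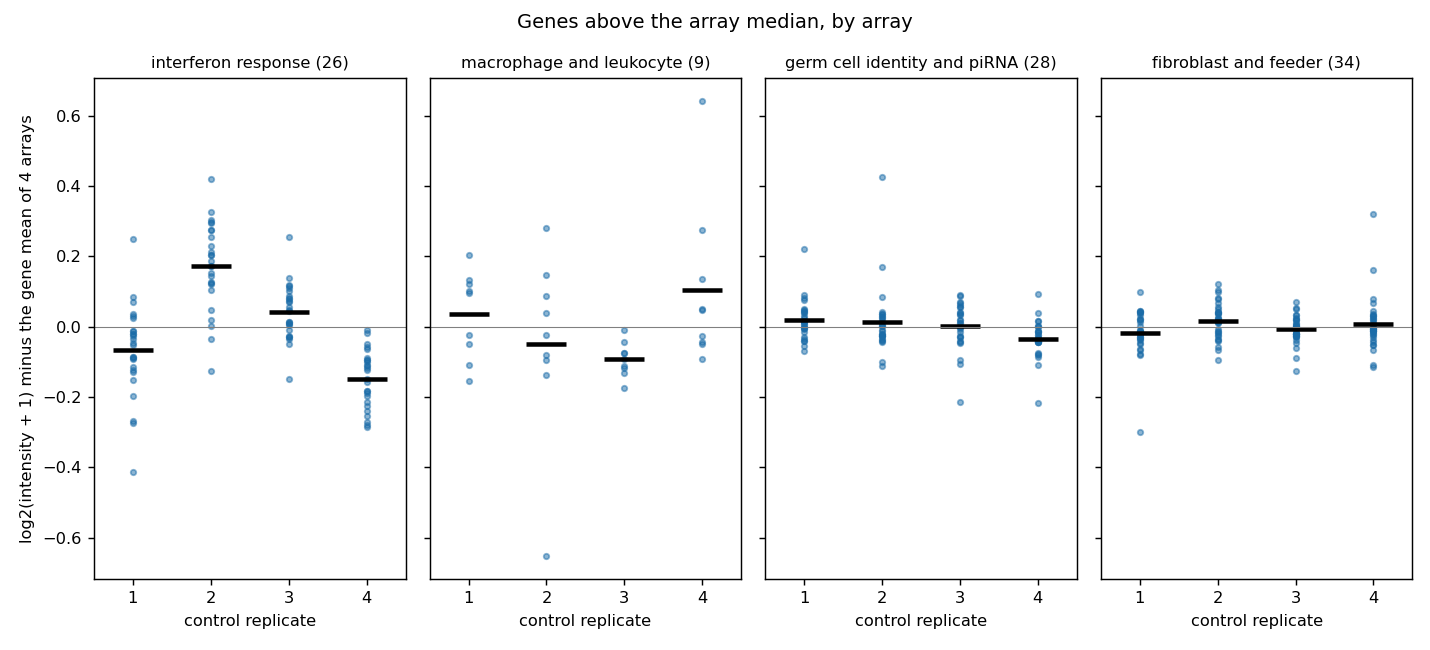
Log2(intensity + 1) minus the gene's mean over the 4 Negative control arrays, by control replicate, for the members above the array median (dots) of the interferon, macrophage, germ cell and fibroblast lists, with the mean of the list as a black bar. The interferon mean is 0.17 on replicate 2 and -0.15 on replicate 4, and the means of the germ cell and fibroblast lists stay near 0.

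Among single genes, 22 of the 10989 above the median differed more than 2-fold between their highest and lowest array. The widest spread was that of Ddit4, a gene induced by stress and low oxygen, with 722, 781, 456 and 314. Lyz2, a lysozyme of macrophages, read 79.8, 46.9, 69.6 and 116, and its paralogue Lyz1 read 222, 150.2, 175 and 329. Both lysozyme genes were highest on replicate 4 and lowest on replicate 2; they are near-identical copies, so probes may be shared between them. The macrophage genes Fcgr2b (47.2, 47.5, 21.04 and 53.5) and Mpeg1 (17.3, 41.9, 19.6 and 25.2) were also among the 10 with the widest spread, but their lowest arrays were replicates 3 and 1. The other members of these 10 were Insyn2a, Gatad2b, Snap29, Ctla2b and Esyt3.

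Promoter sequence ran with intensity. A window of 300 bases, 250 before to 50 after the start, was available from RefSeq for 14452 genes. For the 2661 genes with more than 1 window, CpG counts were averaged over windows and a motif was counted if any window held it. The median CpG count per window was 6 for genes with a mean under 10, 16 between 10 and 100, 21 between 100 and 1000, 23 between 1000 and 10000, and 24 over 10000. The shares with at least 15 CpG were 23.9%, 53.3%, 74.5%, 81.0% and 80.7%. Among the gene lists, the median was 22.5 CpG for ribosomal proteins, 19 for stem cell regulators and 23 for growth factor receptors. It was 3 for other-tissue genes and 2 for olfactory receptors. Not every dim list was poor in CpG. Fox and Sox genes, with median intensities of 9.80 and 9.22, had medians of 23.5 and 22 CpG in the 24 and 13 members with a window. Fibroblast genes, though bright, had a median of 9 CpG and interferon-stimulated genes a median of 7, against 17 over all genes. The 8 genes printed above did not all follow the trend. Gfra1, above the median, had 12 CpG in its whole window, fewer than Pax7, near the floor, with 17. The Etv5 window shown had 37 CpG, against a mean of 28 over its 2 starts.

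Short motifs were searched on both strands, and a match is a description of letters, not a binding site. None of the motifs contains another; CCGGAAG and CACGTG each hold a CpG. CCGGAAG, a core form of the ETS motif, was in 4.71%, 11.6%, 20.3%, 25.1% and 24.6% of windows from the lowest to the highest band and in 14.98% of all. It was in 47.6% of the windows of 42 ribosomal protein genes, and in 10.5% of those of 19 stem cell regulators. TATAAA, the TATA box core, was in 17.0%, 10.1%, 7.92%, 8.196% and 14.0% of windows along the bands and in 11.5% of all. Its share was 30.0% for 20 fibroblast genes, 41.9% for 31 other-tissue genes and 0% for 19 stem cell regulators. That 0% was not particular to the regulators. It was also the share for 22 genes of DNA and histone modification, 18 integrins, 13 ephrin receptors and 11 cadherins. CACGTG, the E-box, was in 10.2% of all windows and in 41.4% of those of 29 germ cell identity and piRNA genes, against 25% for 24 meiosis genes and 0% for 16 spermatid genes. Lists outside the germ line also had high shares, with 33.3% for 12 Klf genes and 27.0% for 37 translation factors.

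**Figure D5:**
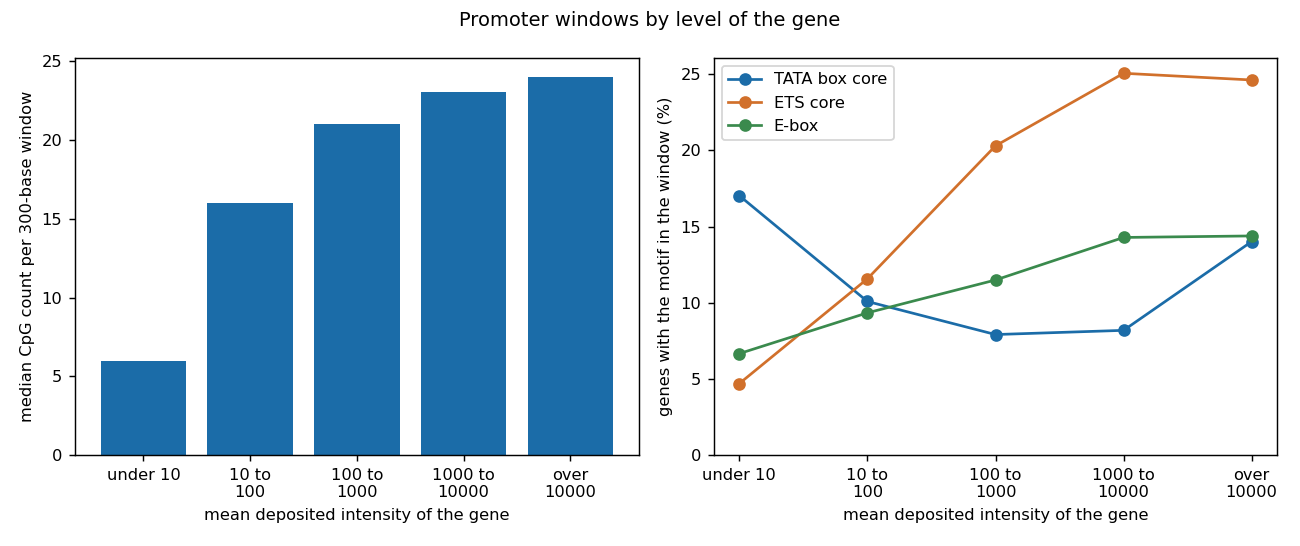
Left: median CpG count per 300-base promoter window by band of mean deposited intensity on the Negative control arrays. Right: share of genes (%) with the TATA box core (TATAAA), the ETS core (CCGGAAG) and the E-box (CACGTG) in the window, by the same bands. CpG counts climb from 6 to 24 and the CCGGAAG share from 4.71% to 24.6%, while the TATAAA share is highest in the dimmest band, at 17.0%.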

How the data were processed

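RNA was taken up in Trizol, treated with DNase and copied to cDNA with a poly(T) primer, per the labels' protocols, and the biotin-labelled product was hybridised to Affymetrix mouse arrays. The deposited values are linear intensity values, already summarised by the authors to 1 value per probe set and array. GCRMA, MAS5, Affymetrix Expression Console 1.1 and Partek 6.4 appear in the submitters' processing notes without a role. Whether GCRMA or MAS5 made the intensities, and any normalization between arrays, are not given in the sources used here. The dimmest values varied little between arrays, with a median coefficient of variation of 1.25% under 10 and 8.22% between 10 and 100. Whether the summary step compressed values near the floor was not tested.

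Only the 4 Negative control arrays were used, and the 12 knockdown arrays were left out. Of 45037 non-control probe sets, 34945 were paired with 1 gene, 932 with several and 9160 with none in the platform annotation used here, and only the first were named. Gene identifiers were checked against the RefSeq table of GRCm38.p6. Each gene took its probe set with the highest mean. A gene was counted as above the array median if its probe set exceeded the median of all non-control probe sets on each array. Spread was computed on log2(intensity + 1). The steps were tested on simulated data with Python 3.11.15, numpy 2.4.6 and pandas 2.3.3, and figures were drawn with matplotlib 3.10.9.

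The members and the gene lists were chosen with earlier results of these data known. Families picked by symbol were trimmed after the data were seen: kinases, binding proteins and a receptor antagonist that only share a prefix were removed from the ribosomal, translation, integrin and interleukin receptor families. Genes given with values were drawn, without naming all of them, from sets set by a rule: the 30 brightest, every stem cell regulator and growth factor receptor, the 5 highest and 3 lowest of each other list, the 3 highest of each symbol family, and the 10 with the widest spread among genes above the median. Genes named beyond it, such as Wt1, Gata4, Dmc1, Psmc3ip, Mnd1, Ccnb1ip1, Mlh3, Hormad2, Peg10, Nanog, Sox2, Thy1, Piwil2, Piwil4 and Xist, were chosen after their values were seen. So were Cdkn1a, Cdkn1b, Cdkn2c, Cdkn2d, Rps16, Eif4a3 and Ndufb4. Alternatives were 2 scalings between arrays, other probe sets for a gene, other levels in place of the array median, a pseudocount of 16, the geometric mean and each array left out in turn.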

Additional observations from a re-analysis of the deposited data

Results flagged for a closer look

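Of the 246 genes given with values, 15 had a single control array far from the other 3. The measure was the gap to the nearest other array, divided by the range of the 4, which passed the critical value of Dixon's test for 4 samples. Chance gives about 1 in 20 such cases, so 15 of 246 is close to that share, and no explanation was tested.

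Replicate 1 stood apart for Cd9, with 3916 beside 4205 to 4242 on the other arrays, for Ptch1, with 473.7 beside 492.2 to 492.7, and for Uhrf1, with 7215 beside 6947 to 6968. Replicate 2 stood apart for Csf1, with 3431 beside 3359 to 3363, and for the lactate carrier gene Slc16a1, with 11990 beside 11000 to 11090. Replicate 3 stood apart for the axis gene Hormad2, with 80.61 beside 92.07 to 92.39, for Klf4, with 1198 beside 1380 to 1414, and for the proteasome gene Psmb4, with 23670 beside 23160 to 23240. It also stood apart for 4 genes near the floor or the array median, namely Pax7 with 4.935, Pecam1 with 7.323, Phlda2 with 4.881 and Piwil1 with 13.83. Replicate 4 stood apart for Rb1, with 1230 beside 1088 to 1111, for Rhox5, with 1839 beside 1722 to 1740, and for Kdr, with 4.855 beside 3.467 to 3.511. None of these genes crossed the array median on the array that stood apart.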

How the results depend on the processing

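No paired analysis was possible because a single group was described and the results come from no test. The count of genes above the median, 10989, lay between 7440, with the dimmest probe set of each gene, and 11025, without replicate 3. Of 264 list counts under 11 alternatives, 243 stayed within 1.5 times the reported count. With the dimmest probe set, members above the median numbered 20 growth factor receptors, 18 ligands, 15 surface proteins, 17 signalling genes, 24 cell cycle genes, 9 pluripotency genes, 7 imprinted genes and 4 Sertoli genes, and 2 each of the spermatid, myoid, other-tissue and sex chromosome lists. The stem cell regulators above the median fell from 27 to 18 of 31 with it, which still counted as within 1.5 times. With an intensity of 100 in place of the array median, 1 spermatid, 3 macrophage, 1 endothelial, 1 other-tissue and 3 sex chromosome genes remained above it. With the 95th percentile of the other-tissue genes (82.1 to 97.9), these were 1 spermatid, 3 macrophage, 1 endothelial and 1 other-tissue gene. The median SD of log2(intensity + 1) over genes above the median was 0.0623, against 0.0594 with a pseudocount of 16 and 0.0569 to 0.0597 with an array left out. The range of the interferon list between arrays, 0.32, lay between 0.19 and 0.32 with an array left out. Of the 246 gene levels, 139 moved by more than their SD with the mean over probe sets and 141 with the dimmest probe set, and 31 of 243 without probe sets of shared probes. None moved under the scalings, with the geometric mean or with an array left out. The choice of probe set thus sets a gene's level more than the arrays do, and signals near the floor cannot be ordered.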

Other observations

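Of 15 measured imprinted genes, which are transcribed from a single parental copy, 11 lay above the array median on all 4 control arrays (73.3%, beside 60.4% of all genes). With the dimmest probe set of each gene the count was 7. Mest (20690 ± 547), Plagl1 (15435 ± 416) and Dlk1 (12145 ± 700.0) stood in the top 5% of all genes. The 4 not above it, Peg10 (5.44 ± 0.0953), Snrpn (4.88 ± 0.0617), Phlda2 (5.32 ± 0.294) and Zim1 (4.39 ± 0.0801), lay near the floor. Of 22 genes of DNA methylation and histone modification, 20 lay above the median, led by the chromatin remodeller Hells (12694 ± 198) and Uhrf1 (7024 ± 128), which guides DNMT1 to replicated DNA. The demethylation genes Tet1 (9.45 ± 1.33) and Tet3 (4.83 ± 0.0302) lay below it.

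Of 18 glycolysis genes 17 lay above the median (94.4%, beside 60.4% of all genes), with Pgam1 (19758 ± 283) first. The lactate carrier Slc16a1 averaged 11271 ± 478, while the other lactate carrier, Slc16a3, was near the floor (5.597 ± 0.09599). Y-linked Eif2s3y read 1094, 1016, 1052 and 1013. Xist, which silences an X chromosome in female cells, lay near the floor at 6.53 ± 0.107, as did the testis-determining gene Sry (7.34 ± 0.0997). Of genes on the X chromosome 60.0% lay above the array median, beside 60.5% of autosomal genes. Genes measured by 1 probe set lay above it in 44.0% of cases and genes measured by 5 or more in 92.1%, so a count of genes above the median also moves with how many probe sets the array carries.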
